A study of Mus musculus with 6 samples.

Results

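The genes examined here are the BMP ligands Bmp2, Bmp4 and Bmp7, the antagonists Nog, Fst and Bambi, and the inhibitor-of-differentiation genes Id1, Id2, Id3 and Id4. They were chosen by gene symbol, and all 10 have a row among the 18211 genes of the table. RNA was sequenced from oligodendrocyte precursor cells (OPCs), the glial cells from which myelinating oligodendrocytes arise, which were isolated with a Pdgfrα antibody from C57BL/6 mouse brain on postnatal day 7. The wildtype group (3 libraries) came from mice without CreERT, and the DISC1-Δ3 group (3 libraries) from NG2-CreERTM: DISC1 exon3 fl/+ mice, in which Cre removes exon 3 from 1 copy of Disc1. Both groups received tamoxifen by gavage on 4 consecutive days, from P4 to P7. Since the controls lack CreERT, an effect of Cre and an effect of the lost exon cannot be told apart. The NG2 promoter is also active in pericytes. By RT-qPCR of isolated cells, pericytes among them, the study reported raised DISC1-Δ3 RNA in OPCs only. The sources used here do not state whether a library holds 1 animal, so p-values measure the spread between libraries.

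Bone morphogenetic proteins (BMPs) are secreted ligands that bind pairs of type I and type II serine/threonine kinase receptors, which phosphorylate Smad1, Smad5 and Smad9. These Smads enter the nucleus with Smad4 and switch on target genes, among which the Id genes are the classical early responders. Id proteins carry a helix-loop-helix domain without a DNA-binding region. They pair with E proteins and other bHLH factors and keep them off DNA. In the oligodendrocyte lineage, BMP ligands are known to hold back differentiation and to favour an astrocyte fate, and Id2 and Id4 can bind Olig1 and Olig2. Noggin and follistatin, encoded by Nog and Fst, trap ligands outside the cell. Bambi is a membrane pseudoreceptor without a kinase domain.

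Upstream sequences are shown for Id2, Id3 and Id4, because among these closely related genes Id2 was lower, Id3 was higher and Id4 did not pass the test. The sequences are the 250 bases before the start site in RefSeq (GRCm38.p6), read on the strand of the gene. The bases just after that site were found in a GENCODE transcript of the gene for Id2 and Id3, but not for Id4. Capitals mark the Smad motifs GGCGCC and GTCTG on either strand. Id2 lies at chr12:25096093-25096342 on the minus strand, Id3 at chr4:136143572-136143821 and Id4 at chr13:48260866-48261115, both on the plus strand.
Id2: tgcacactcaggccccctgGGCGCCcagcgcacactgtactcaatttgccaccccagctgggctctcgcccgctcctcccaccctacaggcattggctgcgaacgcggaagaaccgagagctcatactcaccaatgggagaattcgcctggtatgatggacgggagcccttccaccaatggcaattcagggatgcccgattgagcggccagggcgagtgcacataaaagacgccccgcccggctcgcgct
Id3: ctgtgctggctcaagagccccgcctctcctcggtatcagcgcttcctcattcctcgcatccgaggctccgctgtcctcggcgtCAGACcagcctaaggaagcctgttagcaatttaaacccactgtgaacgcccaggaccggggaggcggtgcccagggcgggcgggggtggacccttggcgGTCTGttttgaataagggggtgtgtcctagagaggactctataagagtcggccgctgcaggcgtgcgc
Id4: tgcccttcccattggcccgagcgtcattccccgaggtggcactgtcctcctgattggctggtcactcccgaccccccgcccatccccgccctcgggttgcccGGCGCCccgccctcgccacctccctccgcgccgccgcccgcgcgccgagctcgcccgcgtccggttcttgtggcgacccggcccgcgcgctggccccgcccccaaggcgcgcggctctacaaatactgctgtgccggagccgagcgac

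GGCGCC, a GC-rich motif of BMP-responsive enhancers, was found once in Id2, at position -231 from the start site, and once in Id4, at -148. The same motif is in 9.59% of 32851 windows of this length. Id3 held GTCTG, the Smad-binding core, at position -68, and its reverse complement at -167; GTCTG is in 42.2% of all windows. RefSeq windows were matched for 4 of the 10 genes; the fourth, Bmp4 (chr14:46390670-46390919, minus strand), had neither Smad motif. The TCF/LEF motifs CTTTGAT and CTTTGTT were in 3.21% and 5.03% of all windows and in none of these 4. The E-box CANNTG, the site of bHLH factors, was found 3 times in Bmp4 and once in Id2, and is in 66.2% of windows. These matches describe letters in a window and do not establish sites.

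The libraries held 13716619 to 16417219 reads assigned to genes, and 13792 genes that reached an RPKM of 0.5 in 3 or more libraries were tested. RPKM values are reads divided by transcript length and by the total of the library. For some genes RPKM per read differed between libraries by more than the totals did. Bmp4 had 3.80 RPKM from 114 reads in wildtype replicate 2 and 9.59 from 257 in DISC1-Δ3 replicate 3. Ratios of mean RPKM and fitted folds can therefore differ (2.24 and 1.99 for Bmp4). DISC1-Δ3 replicate 3 differed most from its own group, its counts giving a chi-square over degrees of freedom of 5.39 and 4.99 against its group mates, where the other pairs gave 1.80 to 2.97. Disc1 was at 3.51, 3.34 and 3.81 RPKM in wildtype against 2.86, 2.44 and 2.85 in DISC1-Δ3 OPCs, a per-gene value that does not resolve exon 3. Its log2 fold change was -0.45 (edgeR adjusted p = 0.000528). In brain tissue, a different material, the study reported raised DISC1-Δ3 and unchanged full-length DISC1. The isolated cells were not pure by their markers. The summed RPKM of 6 OPC markers was 451.8 to 469.8 in wildtype against 548.8 to 567.9 in DISC1-Δ3 libraries, and that of 7 microglia markers was 9497 to 9638 and 6389 to 6669. Of the 6 OPC markers 4 were higher and 1 lower in DISC1-Δ3 OPCs. All 7 microglia markers were lower in DISC1-Δ3 OPCs and all 6 mural cell markers higher. Endothelial markers were higher for 4 of 7, neuron markers for 5 of 6, and fibroblast markers for 0 of 5, with 0 lower in these 3 lists. Of 6 myelinating oligodendrocyte markers 5 were lower, and of 7 astrocyte markers 1 was higher and 4 lower. Of 4 choroid plexus and ependymal markers 1, Ttr, was higher, and their sum was 778.3 to 897.4 RPKM in wildtype against 1008 to 1135 in DISC1-Δ3 libraries. Cell type lists had no marker at 0 in every library. In bulk RNA, fewer cells of a type and less RNA per cell cannot be told apart.

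All 3 ligands and the antagonists Nog and Bambi were higher in DISC1-Δ3 OPCs, whereas the Id genes moved both ways. By the quasi-likelihood test of edgeR, with p adjusted after Benjamini and Hochberg, 39.9% of all tested genes passed a threshold of 0.05, 20.4% higher and 19.5% lower. Higher genes were 51.1% of these calls, and 70.0% when libraries were scaled by their RPKM sums. Of the 9 genes that reached the RPKM filter in both groups, 7 were higher, 1 was lower and 1 did not pass. Fst reached the filter only in DISC1-Δ3 libraries and is described apart from this count. A rise of at least 1 on the log2 scale was found in 3 of these 9 genes, Bmp2, Bmp7 and Nog, against 2.76% of all tested genes. The median log2 fold change of the 9 genes was 0.59, and that of all tested genes was 0.01.

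**Figure D1:**
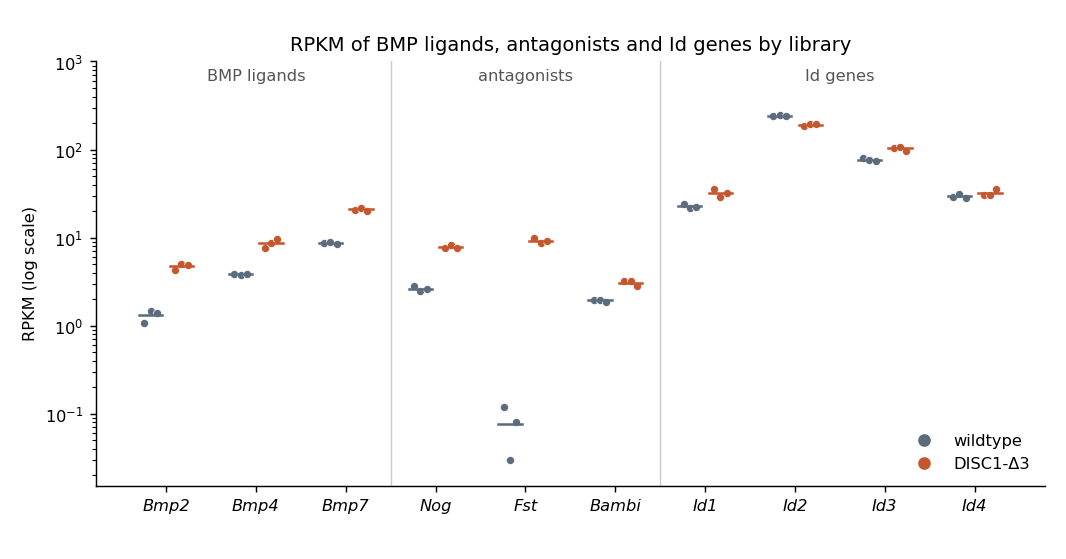
RPKM on a log axis of each gene in the 3 wildtype (slate) and 3 DISC1-Δ3 (orange) libraries, with a line at each group mean (n = 3). The groups overlap for Id4. Fst reached the RPKM filter only in DISC1-Δ3 libraries. It has the widest gap, from at most 0.12 RPKM in wildtype to at least 8.60 in DISC1-Δ3 libraries.

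Bmp2 (gene ID 12156, chr2:133552159-133562896 in GRCm38) encodes a ligand closely related to Bmp4. It had RPKM values of 1.08, 1.48 and 1.41 in wildtype against 4.27, 5.02 and 4.94 in DISC1-Δ3 replicates 1 to 3, from 50, 79 and 72 reads against 208, 267 and 271. The lowest DISC1-Δ3 library was well above the highest wildtype library. Group means were 1.32 ± 0.214 and 4.74 ± 0.412 RPKM (SD, n = 3 libraries per group). The log2 fold change was 1.81 ± 0.13 (SE, edgeR adjusted p = 5.19e-09). Bmp2 had the lowest level of the 3 ligands and the largest fold change.

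Bmp4 (gene ID 12159, chr14:46383525-46390669), the BMP ligand made within the oligodendrocyte lineage, was at 3.91, 3.80 and 3.9 RPKM in wildtype against 7.69, 8.70 and 9.59 in DISC1-Δ3 libraries. The groups were far apart, with wildtype libraries close together and DISC1-Δ3 libraries spread more widely (SD 0.0608 and 0.951 RPKM). The log2 fold change of Bmp4 was 0.995 ± 0.11 (SE, edgeR adjusted p = 1.70e-06), just under 1. Over the alternatives it ran from 0.94 to 1.14. Among markers of newly formed oligodendrocytes, a stage in which Bmp4 is known, Gpr17 and Nkx2-2 were higher, Enpp6 and Itpr2 lower, and Bcas1 and Tcf7l2 did not pass the threshold; their part in the result was not tested.

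Bmp7 (gene ID 12162, chr2:172868012-172940321), a ligand of a different BMP subgroup, was the most abundant of the 3. Its RPKM was 8.68, 9.02 and 8.44 in wildtype against 20.6, 21.8 and 20.3 in DISC1-Δ3 libraries, with groups far apart and SDs of 0.291 and 0.809. In reads, Bmp7 had 419 to 523 per wildtype and 1035 to 1241 per DISC1-Δ3 library. The log2 fold change was 1.18 ± 0.065 (SE, edgeR adjusted p = 1.31e-10). Bmp7 is also made by meningeal fibroblasts, and the fibroblast markers Col1a1, Col1a2, Col3a1, Dcn and Lum did not pass the threshold (log2 fold changes of 0.06 to 0.24). Their summed RPKM was 28.3 to 31.7 in wildtype against 33.2 to 37.2 in DISC1-Δ3 libraries, without overlap, and their part in the rise of Bmp7 was not tested.

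Together the 3 ligands summed to 13.7, 14.3 and 13.8 RPKM in wildtype against 32.6, 35.5 and 34.8 in DISC1-Δ3 libraries. Bmp7 held 61.4% to 63.5% of that sum in wildtype against 58.2% to 63.3% in DISC1-Δ3 libraries, so its share overlapped between the groups. The share of Bmp2 was 7.90% to 10.3% in wildtype against 13.1% to 14.2% in DISC1-Δ3 libraries, without overlap. For the Bmp2 share the exact permutation p, two-sided, was 0.1, the smallest that 3 against 3 libraries allow.

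Nog (gene ID 18121, chr11:89300638-89302559) encodes noggin, which binds BMP2 and BMP4 tightly and BMP7 more weakly. It was at 2.80, 2.46 and 2.58 RPKM in wildtype against 7.69, 8.22 and 7.62 in DISC1-Δ3 libraries, from 68 to 75 and 195 to 236 reads. The groups were far apart relative to their SDs of 0.172 and 0.328 RPKM. Nog had a log2 fold change of 1.51 ± 0.12 (SE, edgeR adjusted p = 2.77e-08), which lay between those of Bmp7 and Bmp2.

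Fst (gene ID 14313, chr13:114452262-114458989) encodes follistatin, which neutralizes activins and also binds several BMPs. Its RPKM was 0.12, 0.03 and 0.08 in wildtype against 9.80, 8.60 and 9.13 in DISC1-Δ3 libraries. In reads, the wildtype libraries had 4, 1 and 3, against 346, 342 and 366. Fst was thus near the limit of detection in every wildtype library, and its level in every DISC1-Δ3 library exceeded that of Nog (at most 8.22 RPKM). From 8 and 1054 reads in all, the fold was 124 with a 95% exact interval of 62.9 to 289, which covers counting error only. Fst reached the RPKM filter only in DISC1-Δ3 libraries, so it had to differ to be tested, and no p-value is given. The fitted log2 fold change was 6.90 ± 0.23 (SE, edgeR). On log2 values with a pseudocount of 1 it was 3.24, a scale that shrinks changes of genes near 0, and without wildtype replicate 1 it was 7.37.

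Bambi (gene ID 68010) had the lowest mean in DISC1-Δ3 OPCs of the 10 genes. The RPKM was 1.97, 1.98 and 1.86 in wildtype against 3.26, 3.18 and 2.84 in DISC1-Δ3 libraries, from 132 to 159 and 224 to 251 reads, and the groups did not overlap. Its log2 fold change of 0.59 ± 0.11 (SE, edgeR adjusted p = 0.000269) was the smallest of the 6 ligand and antagonist genes. Bambi is also known from pericytes and endothelial cells, and the mural markers summed to 144.9 to 154.0 RPKM in wildtype against 208.0 to 214.7 in DISC1-Δ3 libraries; their part was not tested.

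Ligands and secreted antagonists were also set against each other within each library. Nog and Fst summed to 2.92, 2.49 and 2.66 RPKM in wildtype against 17.5, 16.8 and 16.8 in DISC1-Δ3 libraries. Fst made up 1.2% to 4.11% of that sum in wildtype against 51.1% to 56.0% in DISC1-Δ3 libraries. The ratio of the ligand sum to the antagonist sum was 4.68, 5.74 and 5.17 in wildtype against 1.86, 2.11 and 2.08 in DISC1-Δ3 libraries (means 5.20 ± 0.531 and 2.02 ± 0.136, SD, n = 3 each). This ratio is a description, since Fst was near 0 in wildtype and made up 51.1% to 56.0% of the DISC1-Δ3 sum. Over Nog alone the ratio was 4.88, 5.81 and 5.33 in wildtype against 4.23, 4.32 and 4.57 in DISC1-Δ3 libraries (means 5.34 ± 0.466 and 4.37 ± 0.172, SD, n = 3 each), so most of the fall in the first ratio came with Fst. Its groups did not overlap, with a two-sided exact permutation p of 0.1, the smallest possible. Both ratios leave out the 15 other extracellular antagonists and modulators. These summed to 67 to 70.68 RPKM in wildtype against 99.65 to 103.32 in DISC1-Δ3 libraries. Neither ratio therefore gives the balance of ligands to all antagonists. Either ratio compares RNA levels per length and says nothing of protein.

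**Figure D2:**
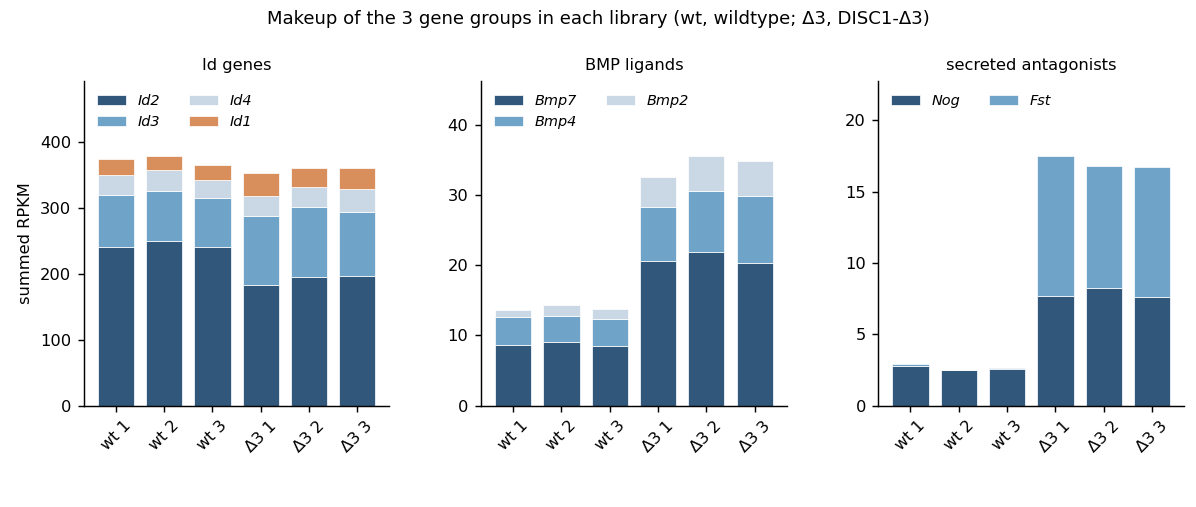
Stacked bars of summed RPKM, from 0, in each library for the Id genes, the BMP ligands and the secreted antagonists Nog and Fst. The Id sum is 365.0 to 378.5 RPKM in wildtype and 353.4 to 360.9 in DISC1-Δ3 bars, the ligand sum goes from at most 14.3 to at least 32.6, and Fst appears as a visible share of the antagonists only in the DISC1-Δ3 bars.

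Of the Id genes, Id1 and Id3 were higher, Id2 was lower and Id4 did not pass the threshold. Id2 (gene ID 15902, chr12:25093799-25096092) was the most abundant of the 10 genes. It was at 240.7, 249.6 and 240.0 RPKM in wildtype against 183.3, 194.5 and 196.0 in DISC1-Δ3 libraries, from 3701 to 4641 and 2953 to 3551 reads. All DISC1-Δ3 libraries were below all wildtype libraries, and the mean fell from 243 ± 5.31 to 191 ± 6.94 RPKM (SD, n = 3 each). The log2 fold change was -0.43 ± 0.044 (SE, edgeR adjusted p = 4.01e-07). Microglia and myelin markers were lower in the same libraries, and their part in this result was not tested.

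Id3 (gene ID 15903, chr4:136143822-136145392) was second in level, at 79.4, 76.1 and 74.3 RPKM in wildtype against 104.7, 106.4 and 97.5 in DISC1-Δ3 libraries. The groups did not overlap, and the log2 fold change was 0.35 ± 0.059 (SE, edgeR adjusted p = 0.000134). Of the 10 genes it alone had fractional counts, in all 6 libraries, which arise when reads that match several genes are divided, so its level is less certain. Id1 (gene ID 15901, chr2:152736251-152737410) was at 24.0, 21.5 and 22.3 RPKM in wildtype against 35.3, 28.9 and 31.8 in DISC1-Δ3 libraries. The gap between the groups was wider than their SDs of 1.3 and 3.21 RPKM, with a log2 fold change of 0.42 ± 0.093 (SE, edgeR adjusted p = 0.00138). Both genes are strongly expressed in brain endothelium, and summed endothelial markers were at 148.1 to 159.1 RPKM in wildtype against 198.03 to 201.02 in DISC1-Δ3 libraries. The highest of these markers, Cldn5, had a log2 fold change of 0.39, while Pecam1 and Kdr were at 0.04 and 0.03 without passing the threshold. The part of endothelial RNA in the rise of Id1 and Id3 was not tested.

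Id4 (gene ID 15904, chr13:48261116-48266028), known from OPCs and astrocytes, was at 29.1, 31.4 and 28.5 RPKM in wildtype against 30.1, 30.7 and 35.5 in DISC1-Δ3 libraries. These values overlap, and the log2 fold change was 0.03 (95% interval -0.12 to 0.18, edgeR adjusted p = 0.743). DISC1-Δ3 replicate 3 had the highest value, and without it the log2 fold change was -0.04. The adjusted p of Id4 ran from 0.215 to 0.975 over the alternatives.

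The Id genes differed from each other in level by more than their spread, except for Id1 and Id4 in DISC1-Δ3 libraries. In wildtype the order was Id2, Id3, Id4 and Id1 without overlap of neighbours; in DISC1-Δ3 libraries Id4 (30.1 to 35.5 RPKM) and Id1 (28.9 to 35.3) overlapped. The sum of the 4 genes was 365.0 to 378.5 RPKM in wildtype against 353.4 to 360.9 in DISC1-Δ3 libraries. Id2 held 64.5% to 65.9% of that sum in wildtype but 51.9% to 54.3% in DISC1-Δ3 libraries, without overlap. The share of Id3 was 20.1% to 21.3% in wildtype and 27.0% to 29.6% in DISC1-Δ3 libraries, and that of Id1 was 5.67% to 6.43% and 8.01% to 9.98%. The share of Id4 was 7.79% to 8.30% in wildtype and 8.51% to 9.85% in DISC1-Δ3 libraries, also without overlap, in a sum that was itself lower. The ratio of Id2 to Id3 was 3.03, 3.28 and 3.23 in wildtype against 1.75, 1.83 and 2.01 in DISC1-Δ3 libraries. Because this ratio is taken within a library it does not depend on the scaling between libraries. Its groups did not overlap (two-sided exact permutation p = 0.1, the smallest possible).

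**Figure D3:**
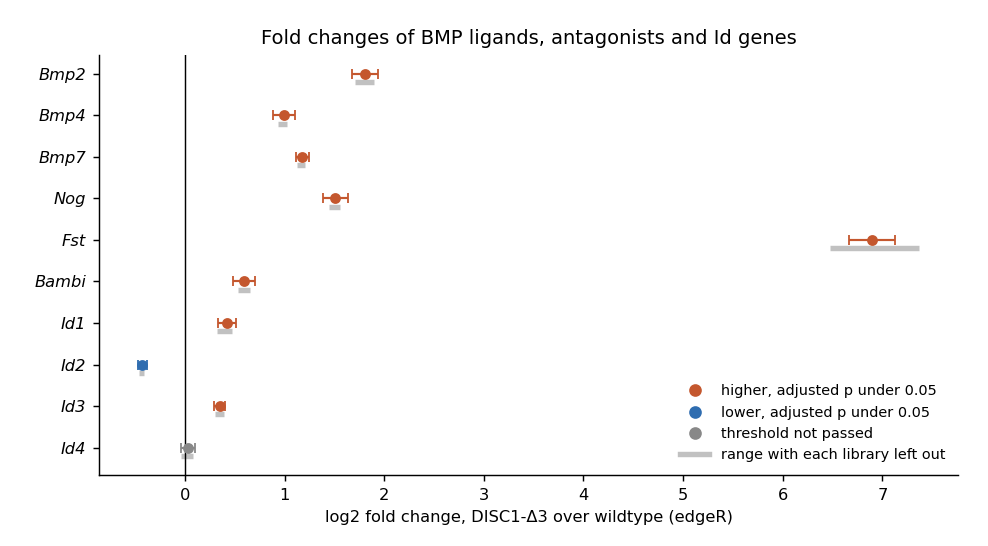
Fitted log2 fold changes (DISC1-Δ3 over wildtype) of the 10 genes with their standard errors, and grey bars for the range when each library is left out in turn. Only the bar of Id4 crosses 0 (-0.04 to 0.08), and Fst, at 6.48 to 7.37, has the widest bar.

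The other genes of the pathway were followed from ligand to target in 8 lists of 65 genes, of which 45 were tested. At the same threshold 16 (35.6%) were higher and 7 (15.6%) lower, against 20.4% and 19.5% of all tested genes, and the median of the 45 was 0.09 on the log2 scale. Without Runx2, which reached the filter only in DISC1-Δ3 libraries, 15 of 44 were higher. The counts of the single lists rest on few genes each and are read against the same shares. Of the other BMP and GDF ligands 1 of 10 was tested: Bmp6, at 1.47 to 1.72 RPKM in wildtype against 1.22 to 1.41 in DISC1-Δ3 libraries, which did not pass (log2 fold change -0.39, edgeR adjusted p = 0.0774). Bmp3 was below the filter, at 0.09 to 0.20 and 0.43 to 0.61 RPKM. Among the activin and inhibin subunits, the activin chains being the main ligands of follistatin, 1 of 2 tested was higher. Inhbb, which encodes the activin βB chain, was at 3.32, 2.78 and 3.00 RPKM in wildtype against 8.49, 7.89 and 9.12 in DISC1-Δ3 libraries, without overlap. The log2 fold change of Inhbb was 1.41 ± 0.091 (SE, edgeR adjusted p = 1.07e-09).

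Of 11 tested receptors and co-receptors, 0 were higher and 3 lower, with a median of -0.10. Bmpr2, the BMP type II receptor, was at 6.15, 6.15 and 5.77 RPKM in wildtype against 4.11, 4.19 and 5.78 in DISC1-Δ3 libraries, so that replicate 3 lay within the wildtype range. It had a log2 fold change of -0.43 ± 0.096 (SE, edgeR adjusted p = 0.00155), and -0.61 without DISC1-Δ3 replicate 3. Acvr2b, a type II receptor for activins and BMPs, was at 2.34 to 2.57 and 1.72 to 2.29 RPKM, with a log2 fold change of -0.39 (edgeR adjusted p = 0.00349, and 0.0909 or 0.0981 in the limma fits, where the call was lost). Bmpr1b was at 4.91, 4.54 and 4.57 RPKM in wildtype against 3.17, 4.45 and 4.38 in DISC1-Δ3 libraries. Its log2 fold change was -0.30 (edgeR adjusted p = 0.0325). DISC1-Δ3 replicate 1 was the lowest, and replicates 2 and 3 lay just under the wildtype range. The type I receptors Bmpr1a and Acvr1 were at -0.10 and 0.08 and did not pass.

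Among 9 tested extracellular antagonists and modulators other than Nog, Fst and Bambi, 5 were higher and 0 lower, with a median of 0.30. Sostdc1, a secreted protein that binds BMPs and also Wnt co-receptors, was at 2.96, 2.61 and 2.40 RPKM in wildtype against 14.4, 18.3 and 16.1 in DISC1-Δ3 libraries. That is a log2 fold change of 2.54 ± 0.13 (SE, edgeR adjusted p = 3.06e-11), larger than those of Nog and the 3 ligands. Chrd, which encodes chordin, a BMP trap, was at 2.23 to 2.35 and 4.02 to 5.0 RPKM (log2 fold change 0.88, edgeR adjusted p = 9.90e-06). Nbl1, Twsg1 and Fstl1 rose by 0.31, 0.30 and 0.36 on the log2 scale. Antagonists below the filter included Grem1 and Sost.

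Of the 4 BMP Smads, 1 was higher. Smad5 was at 8.63 to 9.35 RPKM in wildtype against 10.2 to 11.95 in DISC1-Δ3 libraries, with a log2 fold change of 0.20 (edgeR adjusted p = 0.0168). The call on Smad5 was lost without wildtype replicate 1 (adjusted p = 0.0785), without DISC1-Δ3 replicate 2 (0.0631) and without DISC1-Δ3 replicate 3 (0.0532). Smad1, Smad9 and Smad4 were at 0.14, -0.02 and 0.11 and did not pass. Among 5 intracellular brakes 1 was higher and 3 lower. Smad7, an inhibitory Smad, was at 11.1 to 13.8 RPKM in wildtype against 9.74 to 10.8 in DISC1-Δ3 libraries (log2 fold change -0.34, edgeR adjusted p = 0.00117). Smad6, the other inhibitory Smad of the list, did not pass (log2 fold change 0.04, edgeR adjusted p = 0.861). Smurf1 and Smurf2, ubiquitin ligases that target Smads and receptors, fell by 0.24 each on the log2 scale, and the call on Smurf1 was lost in the limma fits (adjusted p = 0.0741 and 0.0734). Tob1 rose by 0.41.

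Of 5 tested BMP target genes other than the Id genes, 2 were higher and 0 lower, 1 of the 2 being Runx2, which had to differ to pass the filter. Atoh8, a bHLH gene downstream of BMP Smads, was at 1.36, 1.43 and 1.81 RPKM in wildtype against 3.01, 3.33 and 3.11 in DISC1-Δ3 libraries, a log2 fold change of 0.95 ± 0.16 (SE, edgeR adjusted p = 0.000163). Runx2, a bone transcription factor, reached the filter only in DISC1-Δ3 libraries (0.26 to 0.28 against 1.0 to 1.26 RPKM, 48 against 231 reads in all). Hey1, Msx1 and Dlx5 did not pass, at 0.18, 0.34 and 0.04.

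Among 8 bHLH factors, either partners of Id proteins or glial factors, 6 were higher and 1 lower. The E proteins Tcf3, Tcf4 and Tcf12 rose by 0.30, 0.23 and 0.38 on the log2 scale. Olig2, the lineage factor of OPCs, was at 39.9, 37.2 and 37.02 RPKM in wildtype against 61.4, 58.3 and 54.4 in DISC1-Δ3 libraries (log2 fold change 0.53, edgeR adjusted p = 7.19e-07), and Olig1 rose by 0.31. Hes1, a Notch effector, fell by 0.46, from 58.8 to 60.5 RPKM in wildtype to 44.3 to 46.7 in DISC1-Δ3 libraries. Olig1 and Olig2 also belong to the 6 OPC markers, of which 4 were higher, 1 was lower and 1 did not pass. Pdgfra and Cspg4 were higher by 0.48 and 0.46 in the same libraries. Ptprz1 was lower (log2 fold change -0.35) and Sox10 did not pass (0.11). The part of these OPC markers in the rises of Olig1 and Olig2 was not tested.

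**Figure D4:**
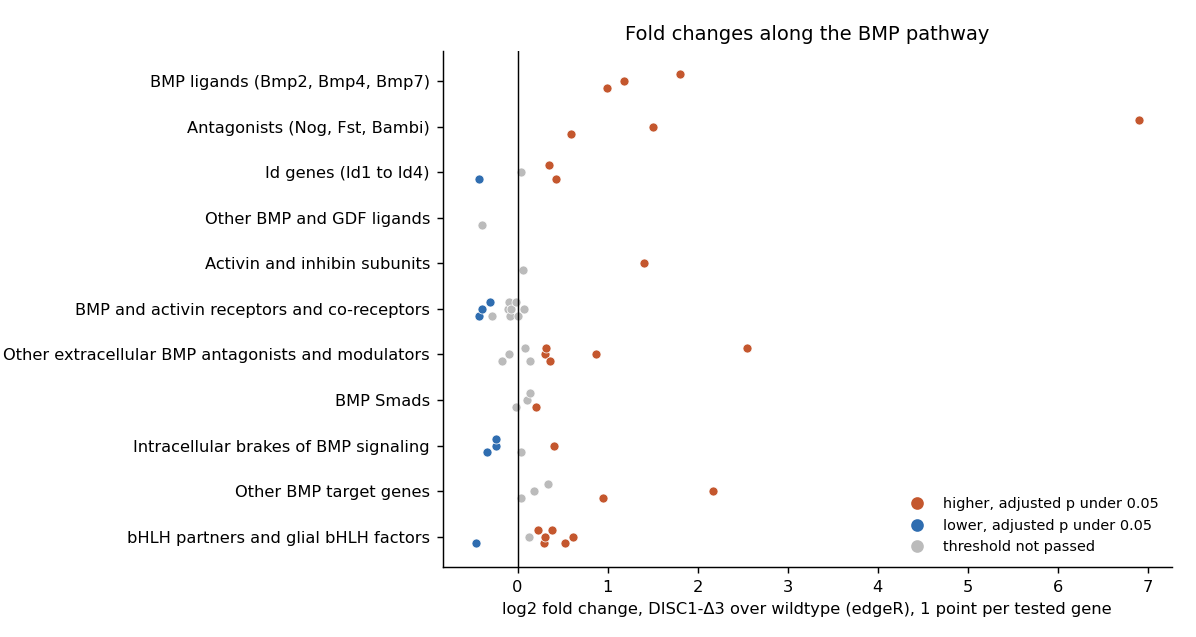
Log2 fold change (DISC1-Δ3 over wildtype) of each tested gene, by list from the described ligands, antagonists and Id genes to the other pathway lists; colours mark genes past an adjusted p of 0.05. Receptors lie between -0.43 and 0.08, whereas Bmp2, Bmp4 and Bmp7 lie between 0.995 and 1.81. Bmp6, the only other BMP or GDF ligand tested, lies at -0.39.

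Expression profiles most like those of the 3 genes with the largest changes were looked up among 12664 genes with a mean RPKM of at least 1, by the root mean square distance of centred log2 CPM over the 6 libraries. Nearest to Fst were Wnt6 (distance 0.395) and Dsc3 (0.420), with log2 fold changes of 5.95 and 8.57. Their wildtype means were 0.42 and 0.00333 RPKM, so like Fst they met the mean RPKM of 1 only through DISC1-Δ3 libraries. A profile near that of Bmp2 was Cacna2d2 (0.0905), at 1.87, and Nog was nearest to Nptx1 (0.0419) and Ccr7 (0.0562), at 1.49 and 1.53. These distances describe 6 libraries and carry no test.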

How the data were processed

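RNA from immunopanned OPCs was sequenced as single-end 50-base reads in 6 libraries, 3 per genotype. The submitters' processing notes name Bowtie2 2.2.5 and mm10, and the study's methods name DESeq2. The counting tool and annotation are not given in the sources used here. The authors deposited an expected count per gene and library, in which reads matching several genes are shared out (90.2% of values above 0 were whole). The deposited RPKM was made by the authors from transcript length and library total, without further scaling. Another 4 columns, of group means, were not used.

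Expected counts were rounded and compared with edgeR 4.0.16 (R 4.3.3), by its quasi-likelihood test with TMM scaling and genotype as the only term. A gene entered if its RPKM reached 0.5 in 3 or more libraries. P-values are two-sided and Benjamini-Hochberg adjusted across every tested gene (threshold 0.05). Replicate numbers did not pair the libraries (correlations of same-numbered deviations from group means of -0.0139 to 0.0414 across genes). Replicates differed by more than sampling noise. The interval of a fold from reads is exact binomial at 95% and covers counting error only, as no molecular identifiers are described. The fits were tested on simulated counts.

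The genes described and the 21 gene lists were chosen with earlier results of these data known, so no test over a list was made. All 10 BMP ligands, antagonists and Id genes are named, the 2 largest rises and falls past the threshold in each list of other pathway genes, and the 2 nearest expression profiles of the 3 described genes with the largest changes. Other pathway genes and the markers were named with their values seen. Some genes that this rule would name are not reported here. Alternatives were median-of-ratios scaling, scaling by RPKM sums, no filter, an RPKM filter of 1, DESeq2 1.42.0, limma 3.58.1 on log2(RPKM + 1) and log2(RPKM + 0.1), the replicate number as a block, and each library left out in turn.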

Additional observations from a re-analysis of the deposited data

How the results depend on the processing

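All 14 alternatives left the calls and directions of Bmp2, Bmp4, Bmp7, Nog, Fst, Bambi, Id1, Id2 and Id3 as they were, while 31.5% to 45.2% of all tested genes were called; Fst, which reached the filter only in DISC1-Δ3 libraries, had to differ. Id4 reversed in 1, at -0.0410 without DISC1-Δ3 replicate 3, and ran from -0.0410 to 0.0805 with each library left out. Genes called over the whole table ran from 4342 to 6232 with each library left out, and DESeq2 called 4600. The called pathway genes ran from 21 to 27 with each library left out. Scaling by RPKM sums moved the share of higher calls from 51.1% to 70.0% (69.2% in both limma fits) and the overall median log2 fold change from 0.01 to 0.09, and of the pathway genes called 20 were then higher and 5 lower. With the replicate number as a block, which the data did not pair, 5429 genes, 9 of the described genes (Fst among them) and 22 pathway genes were called. Of 196 values for 14 named pathway genes, 189 kept their call, and 7, for Acvr2b, Smurf1 and Smad5, lost it. Depth limits Fst most, which had 8 wildtype reads.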
